A study of Homo sapiens with 12 samples.

Results

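The genes described here are 34 genes of homologous recombination and of the Fanconi anemia pathway, taken by their symbols from the 28813 genes of the authors' expression table, in which all 34 were found. Messenger RNA of MKL-1, an established human Merkel cell carcinoma line, was sequenced as 12 polyA-selected libraries. All cells grew in medium with 1% ethanol, refreshed every 3 days. The 3 vehicle libraries at day 6 and the 3 at day 12 received ethanol alone, and the 3 treated libraries at each day received 3 µM EPZ011989 in the same ethanol. EPZ011989 is an inhibitor of EZH2, the methyltransferase that places the repressive H3K27me3 mark. A single line was used, so results hold for MKL-1 only. Nothing in the labels states that the replicates of a group were grown as separate cultures, and a p-value here reflects variation among replicates that may be no more than technical.

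Homologous recombination repairs a double-strand break by copying an intact sister chromatid. The ends are first resected to single strands, BRCA1 with its partners and BRCA2 then prepare the strand for invasion of the sister, cofactors promote strand exchange, and helicases and nucleases resolve the joined molecules. In the Fanconi pathway a nuclear core complex carrying the FANCL ubiquitin ligase, with the E2 enzyme UBE2T, attaches a single ubiquitin to FANCD2 and FANCI at a crosslinked fork, after which nucleases and recombination finish the repair. Many of these genes are known to be transcribed most in S and G2 phase, when a sister is present. E2F factors and the CCAAT-binding factor NF-Y are known regulators of such cycle-linked genes.

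The start regions of several members hold spellings of the site that E2F factors bind, and these are printed as a description of sequence. Whether they bear on the change of any member was not tested. Of the 34 members, 31 had an entry in the RefSeq promoter table (GRCh38.p14, 250 bases before to 50 after the start). An E2F spelling (TTTCCCGC, TTTCGCGC, TTTGCCGC or TTTGGCGC, on either strand) stood at a listed start of 6 of the 31, or 19.4%, and of 3.99% of the 27305 genes in that table. Counted per start it stood in 6 of 39 starts of members (15.4%) and in 3.31% of 35116 starts. These backgrounds, and those of the other motifs below, hold genes whether or not they were expressed here. Every member passed the filter on low counts, so the backgrounds are not matched to the members. The 4 spellings differ, so 1 stretch counts under only 1 of them. The 30-base windows below run 5′ to 3′ along the gene's strand, with the E2F letters in capitals.
EXO1, chr1:241848197-241848226, plus strand: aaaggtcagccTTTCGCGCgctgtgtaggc
XRCC2, chr7:152676102-152676131, minus strand: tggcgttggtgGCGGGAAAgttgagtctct
FANCD2, chr3:10026424-10026453, plus strand: cgtcgggcctgGCGGGAAAgtcgaaaacta
FANCA, chr16:89816801-89816830, minus strand: actacaccgcgGCGGCAAAgccaaacgcaa
FANCC, upstream window, chr9:95317863-95317892, minus strand: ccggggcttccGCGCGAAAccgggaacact
FANCC, window nearer the start, chr9:95317737-95317766, minus strand: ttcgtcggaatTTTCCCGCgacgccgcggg
TOPBP1, chr3:133661930-133661959, minus strand: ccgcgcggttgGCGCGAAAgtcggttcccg
A match is a description of letters and not a bound site. No binding was measured in these samples.

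The CCAAT letters, read on both strands, stood in 13 of the 31 members (41.9%) and in 39.7% of all genes of the table, so this share was near the background. The letters TTTGAA, the cell-cycle homology region bound by complexes of the DREAM family, stood in 3 of the 31 (9.68%) and in 18.2% of all genes. The number of CCAAT matches (CCAAT or its reverse ATTGG) at a start was highest in XRCC3, with 5, then in BLM and BRIP1, with 3 each. Members with 0 included FANCB, BRCA2 and EXO1, and also RAD50, FANCE and SLX4, whose changes at day 12 were smaller. BLM and BRIP1 are printed as examples of repeated matches, in capitals. MUS81 and its partner EME1 moved in opposite directions at day 12, and the last 100 bases before their RefSeq starts are printed for that reason. The RefSeq and GENCODE annotations place some starts differently. The MUS81, EXO1 and TOPBP1 starts used here lie inside the GENCODE gene spans given with the values below. Both FANCC windows lie far inside its GENCODE span (chr9:95099054-95426796, minus strand). Starts of other printed genes also differ, by smaller amounts.
BLM, chr15:90717196-90717345, plus strand: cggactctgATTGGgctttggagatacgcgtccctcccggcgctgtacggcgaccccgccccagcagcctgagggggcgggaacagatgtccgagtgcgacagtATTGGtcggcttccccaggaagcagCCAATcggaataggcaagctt
BRIP1, chr17:61863529-61863658, minus strand: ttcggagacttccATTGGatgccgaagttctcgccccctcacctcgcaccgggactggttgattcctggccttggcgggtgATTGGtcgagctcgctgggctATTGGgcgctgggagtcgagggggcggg
MUS81, chr11:65860333-65860432, plus strand: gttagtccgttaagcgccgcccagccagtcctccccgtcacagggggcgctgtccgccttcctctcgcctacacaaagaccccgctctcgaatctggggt
EME1, chr17:50373129-50373228, plus strand: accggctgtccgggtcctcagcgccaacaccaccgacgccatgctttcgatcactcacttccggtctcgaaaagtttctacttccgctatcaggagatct

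The libraries held 15994997 to 20866370 estimated reads, which puts 3 reads at 0.148 to 0.194 CPM (reads scaled to a common library size), and every member passed the filter on low counts. The line's identity was checked against 13 Merkel cell carcinoma markers, whose summed level was 4610 to 4685 CPM in day 6 vehicle, 3728 to 3781 in day 6 inhibitor, 4141 to 4635 in day 12 vehicle and 3477 to 3673 CPM in day 12 inhibitor libraries. Summed fibroblast markers reached at most 29.8 CPM, keratinocyte markers 11.8, leukocyte markers 3.80 and endothelial markers 2.61 CPM in any library. At day 12 fibroblast markers summed to 9.66 to 14.5 CPM in vehicle and 17.9 to 19.4 CPM in inhibitor libraries, and endothelial markers to 0.322 to 0.729 and 1.79 to 2.61 CPM, with 1 of 4 endothelial markers at 0 in each of these groups. Their part in the results was not tested. The first principal component held 71.9% of the variance and set the inhibitor libraries of both days apart from vehicle. Vehicle libraries of both days lay at -42.0 to -37.7 on it, day 6 inhibitor at 2.41 to 2.85 and day 12 inhibitor at 73.2 to 78.3. On the third component the day 12 vehicle replicates 1, 2 and 3 were spread out, at -32.3, -12.7 and 2.54. EZH2 itself, which the compound inhibits as a protein and which no label says was deleted, was at 157 ± 2.36 CPM (mean ± SD, n = 3) in vehicle and 139 ± 2.84 CPM with inhibitor at day 6, and at 174 ± 9.68 and 60.0 ± 2.44 CPM at day 12.

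At day 6, 22 of the 34 members were lower with inhibitor than with vehicle, none was higher and 12 did not pass the test, where 17% of all 15024 genes tested were called lower and 17.1% higher. At day 12, 31 members were lower, 2 were higher and RAD50 did not pass, where 33.2% of all genes were called lower and 33.7% higher. The median log2 fold change of the members was -0.32 at day 6 and -1.58 at day 12, while that of all genes was -0.02 and 0.02. In limma on the authors' table the members called were 13 at day 6, where 24.3% of all genes were called in either direction, and 32 at day 12, where 60.8% were. In edgeR with transcript lengths as an offset, with FANCD2 still from limma, they were 13 and 31, where 21.5% and 57.8% of all genes were called. The day 6 calls of BRCA1, BRCA2, BRIP1, FANCM, RAD51C and RAD51D were among those lost there (edgeR adjusted p 0.0945 to 0.687) and were also lost in limma on the authors' table (adjusted p 0.0613 to 0.562). RAD51C lost its day 6 call as well without day 6 vehicle replicate 1 or 3, day 6 inhibitor replicate 1 or 2 or day 12 inhibitor replicate 1 or 2 (edgeR adjusted p 0.0538 to 0.164), and RAD51D without day 6 vehicle replicate 3 or day 6 inhibitor replicate 1 or 2 (0.0652 to 0.138). A call is an adjusted p under 0.05 in edgeR's quasi-likelihood test across all genes, or in limma for the genes named below as taken from the authors' table, and a value after ± beside a log2 fold change is its standard error. FANCD2, whose summed transcripts reach only 0.735 times its expected level, takes its values from the authors' normalized table and its test from limma, in which 10.9% of 14618 genes were lower at day 6 and 29.8% at day 12, and 37.2% had an effect that differed between the days.

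The falls at day 12 were large in many members. Of the 31 that fell, 14 were at least 4-fold lower, 10 between 2- and 4-fold lower and 7 less than 2-fold lower. Over all genes tested, 9.09% were called lower by at least 2-fold at day 12, against 24 of the 34 members. All 3 inhibitor libraries lay below all 3 vehicle libraries for 25 members at day 6, a pattern seen in 27.1% of all genes, and above them for NBN alone, against 24% of all genes. They lay below for 32 members at day 12, against 33.6% of all genes. No member's groups overlapped at day 12, and 2 members, FANCE and MUS81, lay wholly above vehicle, against 35.5% of all genes.

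**Figure D1:**
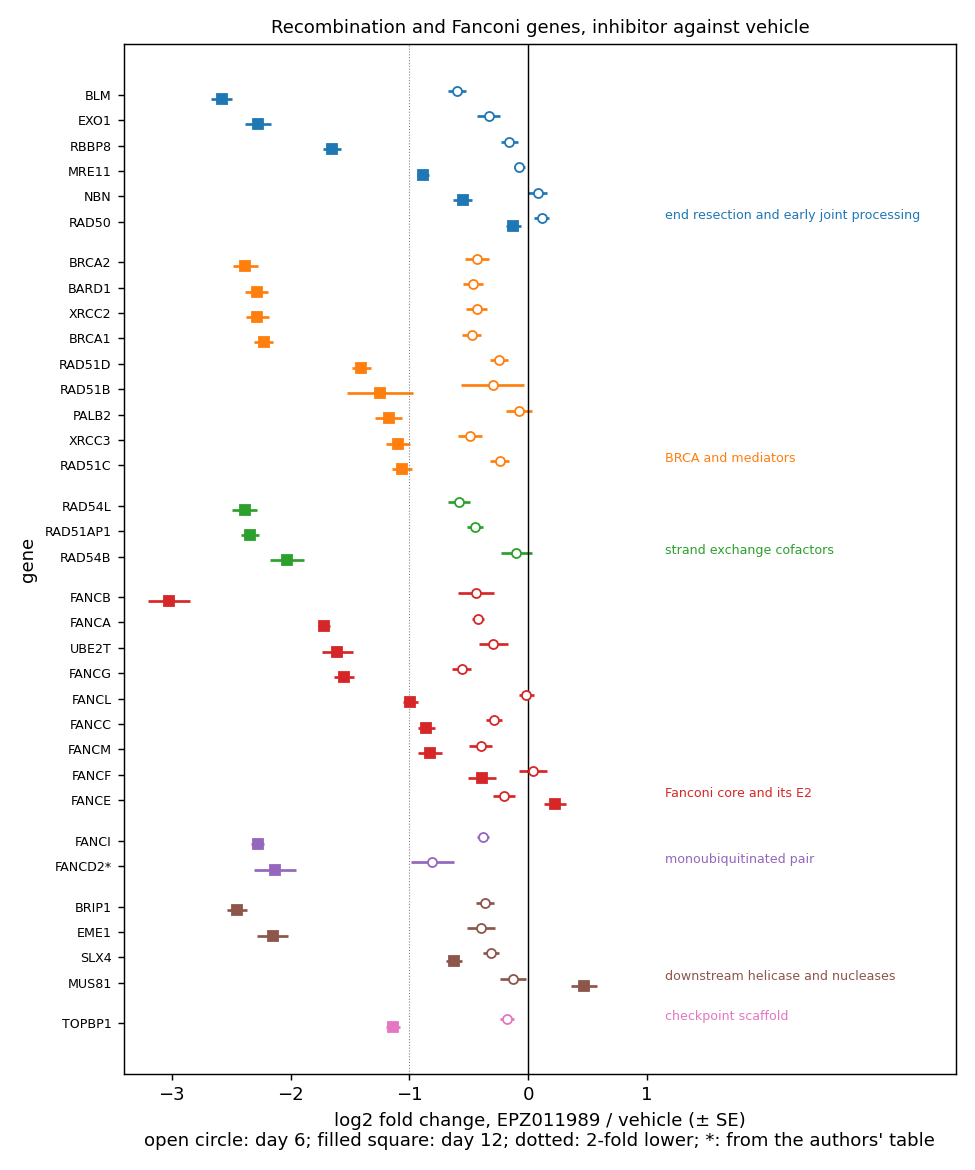
Log2 fold change of each of the 34 members, inhibitor over vehicle, on the x axis with its SE, by role. Open circles (day 6) lie between -0.81 and 0.11, and filled squares (day 12) between -3.02 for FANCB and 0.47 for MUS81.

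Proliferation genes moved with the members. Of 23 reference genes of DNA replication and mitosis, 20 were lower at day 6 (median -0.35) and all 23 at day 12 (median -2.09, from -2.67 to -1.27). Over all genes tested 17% were lower at day 6 and 33.2% at day 12. MKI67, the Ki-67 antigen of cycling cells, was at 1104, 1092 and 1045 CPM in the day 12 vehicle libraries and at 213, 219 and 202 CPM in the day 12 inhibitor libraries, a log2 fold change of -2.35 ± 0.05. In bulk RNA, fewer cells in S and G2 phase and less of a transcript in each cell cannot be told apart. The part of proliferation in the members' change was not tested.

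End resection begins with the MRE11-RAD50-NBN complex, which binds the ends, and RBBP8 (CtIP), which activates its nuclease. EXO1 and the BLM helicase then extend the resected strand. Of these 6 genes 2 fell at day 6, where 17% of all genes tested fell, and 5 at day 12, where 33.2% fell. Their median day 12 log2 fold change was -1.27. The change was not even over the group. The members of long-range resection fell by more than 4-fold, while the MRE11 complex had log2 fold changes of -0.89 ± 0.05 for MRE11, -0.55 ± 0.08 for NBN and -0.12 ± 0.06 for RAD50. RBBP8 lay between them at -1.65 ± 0.08.

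BLM (chr15:90717327-90816165, GRCh38, plus strand) is a RecQ helicase that works in resection and in dissolving double Holliday junctions. It was at 71.2, 69.7 and 73.3 CPM in day 6 vehicle and 50.1, 46.4 and 44.9 CPM in day 6 inhibitor libraries, then at 81.7, 80.4 and 68.6 CPM in day 12 vehicle and 11.6, 13.8 and 13.2 CPM in day 12 inhibitor. The treated libraries were lower than every vehicle library at both days, and those of day 12 were lower than those of day 6. Its log2 fold change was -0.60 ± 0.08 at day 6 (edgeR adjusted p 4.15e-05) and -2.58 ± 0.09 at day 12 (edgeR adjusted p 3.5e-12).

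EXO1 (chr1:241847967-241895148, plus strand), a 5′ to 3′ exonuclease, has its E2F letters at bases 5 to 12 counted from the RefSeq start. Its libraries held 57.8, 54 and 51.2 CPM in day 6 vehicle, 39, 45.5 and 45.3 CPM in day 6 inhibitor, 69.1, 58.8 and 53 CPM in day 12 vehicle and 13.5, 12.2 and 11.6 CPM in day 12 inhibitor. The groups did not overlap at either day. The log2 fold change was -0.33 ± 0.10 at day 6 and -2.27 ± 0.11 at day 12 (edgeR adjusted p 1.15e-10). The day 6 call was lost on the authors' table (limma adjusted p 0.350), with transcript lengths as an offset (edgeR adjusted p 0.395) and without day 6 vehicle replicate 1 or 2 or day 6 inhibitor replicate 1 (0.0585 to 0.0901).

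RAD50 (chr5:132556019-132646344, plus strand), the coiled-coil ATPase that tethers the ends, was the member with the smallest change at day 12. It was at 126, 110.3 and 115 CPM in day 6 vehicle and 122.4, 136 and 122.1 CPM in day 6 inhibitor, and at 135, 149 and 132 CPM in day 12 vehicle and 129, 127 and 125 CPM in day 12 inhibitor. The day 6 groups overlapped, and the day 12 inhibitor libraries lay just under the vehicle ones. The test did not pass at day 6 (edgeR adjusted p 0.178) or day 12 (edgeR adjusted p 0.0908). On the authors' table RAD50 passed at day 12 in limma, at -0.27 (limma adjusted p 0.0254), and without day 6 vehicle replicate 1 it passed as higher at day 6, at 0.19 (edgeR adjusted p 0.0442). The CPM ratio of RAD50 to MRE11, a pair chosen after its values were seen, was 1.17 ± 0.0663 (SD, n = 3) in day 12 vehicle and 1.98 ± 0.0366 in day 12 inhibitor libraries.

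**Figure D2:**
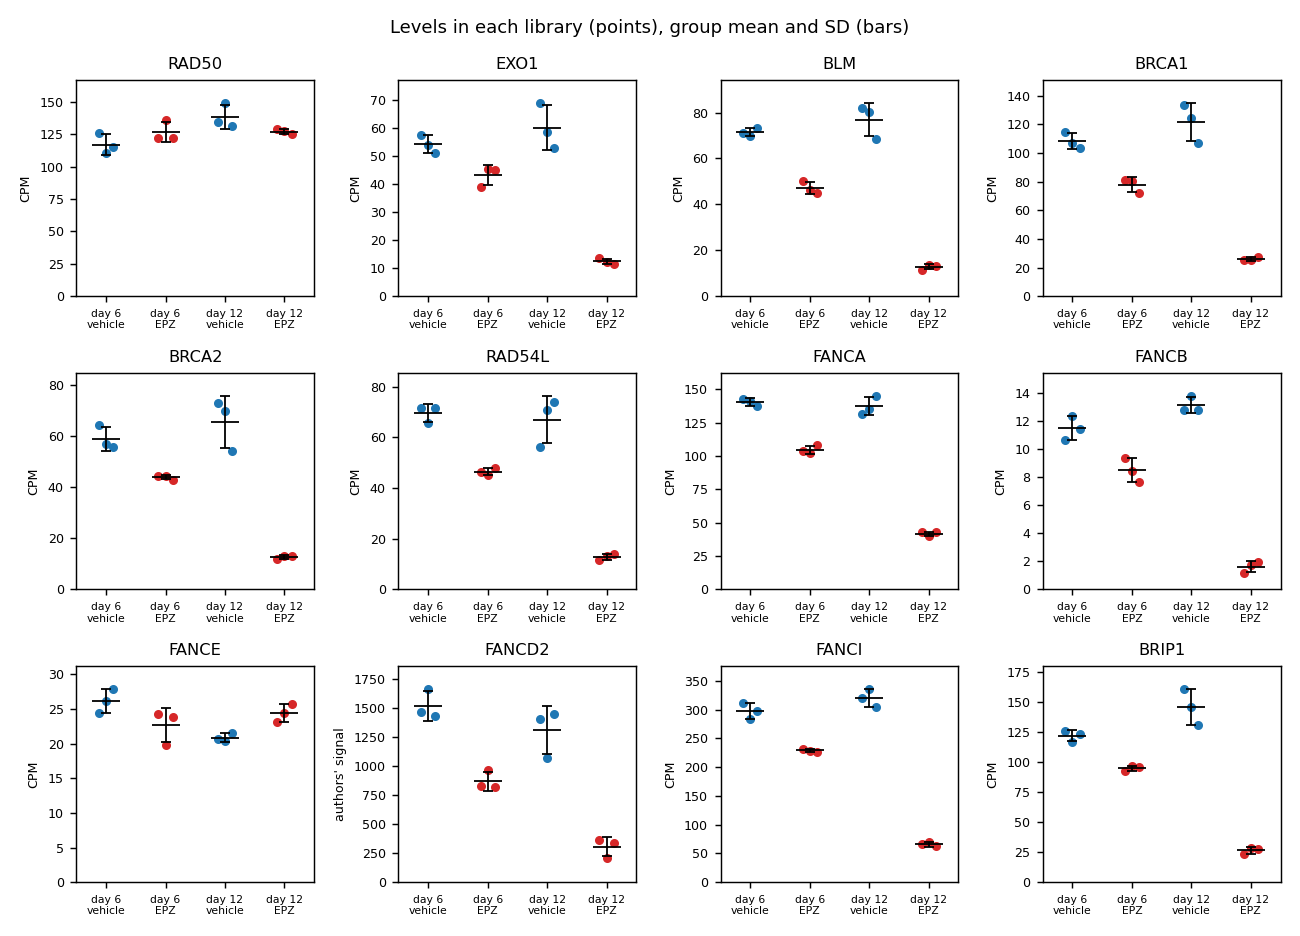
Level in each library (y axis, CPM, or the authors' normalized signal for FANCD2) of 12 members by group (x axis), with the mean and SD of 3 libraries as bars. The day 12 inhibitor points lie far under vehicle for BLM (12.9 against 76.9 CPM on average) and FANCB (1.62 against 13.1 CPM), but close to vehicle for RAD50 and above it for FANCE.

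BRCA1 and BARD1 form a ubiquitin ligase at breaks, PALB2 bridges it to BRCA2, and the mediators RAD51B, RAD51C, RAD51D, XRCC2 and XRCC3 act beside them on the resected strand. All 9 of these mediators fell at day 12, each by at least 2-fold, with a median of -1.40. Over all genes tested 9.09% fell by that much. At day 6 7 of the 9 fell, against 17% of all genes. Neither PALB2 (-0.08 ± 0.11) nor RAD51B (-0.30 ± 0.27) passed at day 6. The day 12 values ranged from -1.06 for RAD51C to -2.38 for BRCA2.

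BRCA2 (chr13:32315474-32400266, plus strand), which binds PALB2 and acts on single-stranded DNA, was at 64.4, 56.8 and 55.7 CPM in day 6 vehicle and 44.3, 44.2 and 42.9 CPM in day 6 inhibitor libraries. At day 12 it was at 72.9, 69.8 and 54 CPM in vehicle and 11.7, 13.1 and 13 CPM with inhibitor. The inhibitor libraries were lower at both days, and the vehicle libraries of day 12 spread more widely than the others. The log2 fold change was -0.43 ± 0.10 at day 6 (edgeR adjusted p 0.00376) and -2.38 ± 0.11 at day 12 (edgeR adjusted p 8.32e-11).

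BRCA1 (chr17:43044295-43170245, minus strand) was at 114, 107 and 104 CPM in day 6 vehicle, 81.2, 80.5 and 71.9 CPM in day 6 inhibitor, 133, 124.0 and 107 CPM in day 12 vehicle and 25, 25.6 and 27.3 CPM in day 12 inhibitor libraries. BARD1 (chr2:214725646-214809711, minus strand) was at 59.2, 59.5 and 55.7 CPM, 39.6, 45.5 and 41.4 CPM, 61.8, 59.3 and 57 CPM and 10.2, 13.1 and 13.2 CPM in the same order of groups. For both genes the treated libraries lay below vehicle at each day. The day 12 log2 fold change was -2.23 ± 0.08 for BRCA1 and -2.29 ± 0.09 for BARD1. The ratio of BARD1 to BRCA1 in CPM was 0.491 ± 0.0361 (SD, n = 3) in day 12 vehicle and 0.468 ± 0.0520 in day 12 inhibitor libraries, a difference smaller than the spread between libraries.

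Of the other mediators, 5 act in a BCDX2 complex of RAD51B, RAD51C, RAD51D and XRCC2 and a CX3 complex of RAD51C and XRCC3. XRCC2 fell furthest, at -2.28 ± 0.10 at day 12, and the others lay between -1.06 and -1.40. RAD51C (chr17:58692573-58735611, plus strand), the subunit shared by both complexes, changed least of the 9 mediators. It was at 59.1, 51.4 and 55.7 CPM in day 6 vehicle, 45.1, 45.7 and 49.9 CPM in day 6 inhibitor, 67.5, 57.7 and 56.2 CPM in day 12 vehicle and 27.7, 29.3 and 29.8 CPM in day 12 inhibitor libraries, which did not overlap at either day. The ratio of XRCC2 to RAD51C in CPM, chosen after its values were seen, went from 1.19 ± 0.0834 (SD, n = 3) in day 12 vehicle to 0.509 ± 0.0630 with inhibitor. RAD51B was low in all libraries, at 1.52 to 5.35 CPM, and its day 12 fall of -1.25 ± 0.28 no longer passed on the authors' table (limma adjusted p 0.0715) or with transcript lengths as an offset (edgeR adjusted p 0.0730).

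All 3 strand exchange cofactors fell at day 12, with a median of -2.34, where 33.2% of all genes tested fell. At day 6 2 of the 3 fell, against 17% of all genes. RAD51AP1 stimulates strand invasion, and RAD54L and RAD54B are motor proteins that move along the duplex and promote strand exchange. RAD54L (chr1:46247688-46278473, plus strand) was at 71.5, 65.5 and 71.8 CPM in day 6 vehicle, 46.4, 45.1 and 47.8 CPM in day 6 inhibitor, 56.3, 70.8 and 73.9 CPM in day 12 vehicle and 11.5, 13.1 and 13.9 CPM in day 12 inhibitor libraries. RAD51AP1 (chr12:4538798-4560048, plus strand) was at 55.5, 55.4 and 55.7 CPM, 39.3, 41.2 and 42 CPM, 61.8, 56 and 52.2 CPM and 11.3, 10.7 and 11.6 CPM in that order. Both were lower in every treated library, at -2.39 ± 0.10 and -2.34 ± 0.08 on the log2 scale at day 12.

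RAD54B (chr8:94371960-94475109, minus strand) was the cofactor that did not pass at day 6. It was at 23.9, 23.9 and 25.5 CPM in day 6 vehicle and 19.9, 23.1 and 25.5 CPM in day 6 inhibitor, groups that overlapped. At day 12 it was at 39, 34.2 and 28.9 CPM in vehicle and 7.11, 7.99 and 9.95 CPM with inhibitor, far apart. Its log2 fold change was -0.10 ± 0.13 at day 6 (edgeR adjusted p 0.603) and -2.03 ± 0.14 at day 12 (edgeR adjusted p 8.61e-09). RAD54B was also called higher in vehicle at day 12 than at day 6, by 0.48 ± 0.13 on the log2 scale. That call was lost on the authors' table (0.20, limma adjusted p 0.570) and with transcript lengths as an offset (0.22, edgeR adjusted p 0.538). It was also lost without any 1 of the day 6 vehicle libraries or day 12 vehicle replicate 1 or 2 (edgeR adjusted p 0.0599 to 0.118). The exons of RAD54B overlap those of FSBP on the same strand, which fell by 1.51 at day 12, and reads of the 2 genes may not be fully separated.

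The Fanconi core complex and its E2 spanned the widest range of day 12 values among the role groups, from -3.02 to 0.22. Of 9 genes 5 fell at day 6, where 17% of all genes tested fell. At day 12 8 fell and FANCE rose, with a median of -0.99, where 33.2% of all genes fell and 33.7% rose. The core is built of a FANCA-FANCG part, a FANCB-FANCL part that holds the ligase, and a FANCC-FANCE-FANCF part that receives the substrate, while FANCM is the translocase that anchors it to DNA. The members of the first part fell at day 12, at -1.72 ± 0.05 for FANCA and -1.55 ± 0.08 for FANCG. The members of the second part fell at -3.02 ± 0.18 for FANCB and -0.99 ± 0.06 for the ligase FANCL. The members of the third part were at -0.86 ± 0.07 for FANCC, -0.39 ± 0.12 for FANCF and 0.22 ± 0.09 for FANCE, with FANCM at -0.83 ± 0.10 and UBE2T at -1.61 ± 0.13. Other Fanconi genes, not among the members, did not all fall. In day 12 vehicle FAAP100 averaged 71.6 CPM, FAAP20 20.0 CPM and FAAP24 4.86 CPM. In day 12 inhibitor libraries FAAP100 averaged 92.4 CPM, FAAP20 24.9 CPM and FAAP24 1.06 CPM.

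FANCA (chr16:89737549-89816657, minus strand) was at 143, 141 and 137 CPM in day 6 vehicle, 103, 102 and 108 CPM in day 6 inhibitor, 131, 135 and 145 CPM in day 12 vehicle and 42.6, 40.1 and 42.6 CPM in day 12 inhibitor libraries. The libraries of a group lay close together, and the inhibitor and vehicle groups did not overlap at either day. The log2 fold change was -0.42 ± 0.05 at day 6 (edgeR adjusted p 1.41e-05) and -1.72 ± 0.05 at day 12 (edgeR adjusted p 1.25e-12).

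FANCB (chrX:14835961-14873069, minus strand), an X-linked core subunit, had the largest fall of the 34 members at day 12. It was at 10.7, 12.4 and 11.5 CPM in day 6 vehicle and 9.36, 8.46 and 7.68 CPM in day 6 inhibitor, and at 12.8, 13.8 and 12.8 CPM in day 12 vehicle and 1.18, 1.76 and 1.91 CPM in day 12 inhibitor. The day 12 inhibitor libraries were near the low end of the measured range but above the 3-read floor. The log2 fold change was -0.43 ± 0.15 at day 6 (edgeR adjusted p 0.0389) and -3.02 ± 0.18 at day 12 (edgeR adjusted p 1.25e-09). The day 6 call was lost under several alternatives: edgeR adjusted p was 0.0590 with library totals, 0.0864 without a filter, 0.0584 with a filter at 5 CPM and 0.0789 with transcript lengths as an offset, and limma gave 0.0831 on the authors' table. It was also lost without any 1 of the day 6 vehicle libraries, day 6 inhibitor replicate 2 or 3, day 12 vehicle replicate 2 or 3 or day 12 inhibitor replicate 2 (0.0531 to 0.162). The ratio of FANCB to FANCL in CPM, chosen after its values were seen, went from 0.159 ± 0.0107 (SD, n = 3) in day 12 vehicle to 0.0387 ± 0.00876 with inhibitor.

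FANCE (chr6:35452356-35467103, plus strand), the subunit that contacts FANCD2, was at 24.4, 26.2 and 27.8 CPM in day 6 vehicle and 24.3, 19.8 and 23.8 CPM in day 6 inhibitor, and at 20.7, 20.3 and 21.6 CPM in day 12 vehicle and 23.1, 24.4 and 25.7 CPM in day 12 inhibitor. The day 12 inhibitor libraries lay above the day 12 vehicle ones but within the range of all day 6 libraries. Its log2 fold change at day 12 was 0.22 ± 0.09 (edgeR adjusted p 0.0449). Vehicle itself fell by 0.32 from day 6 to day 12, a call lost on the authors' table (limma adjusted p 0.295). The day 12 inhibitor call rested on the settings: adjusted p was 0.0513 with DESeq2 and 0.230 with limma on the authors' table, and 0.0507 to 0.140 without day 6 vehicle replicate 2, day 6 inhibitor replicate 1 or 3, day 12 vehicle replicate 1 or 2 or day 12 inhibitor replicate 2 or 3.

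FANCD2 and FANCI, the pair that the core ubiquitinates, both fell at each day. FANCI (chr15:89243949-89317261, plus strand) was at 312, 283 and 297 CPM in day 6 vehicle, 232, 229 and 226 CPM in day 6 inhibitor, 319.7, 336 and 305 CPM in day 12 vehicle and 65.8, 70.2 and 62.1 CPM in day 12 inhibitor libraries. The inhibitor and vehicle groups of each day were far apart compared with their spread. The log2 fold change was -0.38 ± 0.05 at day 6 and -2.28 ± 0.05 at day 12 (edgeR adjusted p 1.46e-13). FANCD2 (chr3:10026414-10101930, plus strand) was at 1462, 1662 and 1427 on the authors' normalized signal scale in day 6 vehicle and 825, 965 and 816 in day 6 inhibitor, and at 1407, 1069.7 and 1451 in day 12 vehicle and 362, 210.4 and 341 in day 12 inhibitor on that scale. Its treated libraries lay below vehicle at each day, and day 12 replicate 2 was the lowest of its group in both arms. On the log2(signal + 1) scale the change was -0.81 ± 0.18 at day 6 (limma adjusted p 0.00469) and -2.13 ± 0.18 at day 12 (limma adjusted p 1.71e-07). The incomplete summed reads of FANCD2 gave -0.13 ± 0.41 at day 6, which did not pass (edgeR adjusted p 0.845). At day 12 they gave -4.78 ± 0.58 (edgeR adjusted p 3.81e-06). The size of its fall thus depended on the source at both days.

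Downstream of the ubiquitinated pair, SLX4 is the scaffold that gathers nucleases, MUS81 with EME1 or EME2 cuts branched DNA, and BRIP1 (FANCJ) is a helicase that binds BRCA1. Of these 4 genes 3 fell at day 6, where 17% of all genes tested fell. At day 12 3 fell and MUS81 rose, where 33.2% of all genes fell and 33.7% rose. BRIP1 (chr17:61681266-61863521, minus strand) was at 126, 117 and 123.1 CPM in day 6 vehicle, 92.4, 96.6 and 95.5 CPM in day 6 inhibitor, 161, 145 and 131 CPM in day 12 vehicle and 23.4, 28.7 and 27.6 CPM in day 12 inhibitor libraries. It was lower in every treated library, at -2.46 ± 0.08 on the log2 scale at day 12 (edgeR adjusted p 4.06e-12). SLX4 was at -0.31 ± 0.06 at day 6 and -0.62 ± 0.07 at day 12.

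MUS81 and EME1 are subunits of the same nuclease and moved in opposite directions at day 12. MUS81 (chr11:65857126-65867653, plus strand) was at 39.5, 44.1 and 38.1 CPM in day 6 vehicle and 35.4, 35.3 and 40.7 CPM in day 6 inhibitor, and at 32.7, 32.3 and 44.2 CPM in day 12 vehicle and 49.7, 52.8 and 48.3 CPM in day 12 inhibitor. Day 12 vehicle replicate 3 lay above the other vehicle libraries of its day and under all 3 treated ones. The log2 fold change was -0.13 ± 0.11 at day 6, where the groups overlapped, and 0.47 ± 0.11 at day 12 (edgeR adjusted p 0.00169).

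EME1 (chr17:50373220-50381483, plus strand) was at 21.3, 20.7 and 19.3 CPM in day 6 vehicle and 17.1, 14.2 and 15.1 CPM in day 6 inhibitor, and at 18.6, 18.8 and 21.1 CPM in day 12 vehicle and 3.89, 3.97 and 5.34 CPM in day 12 inhibitor. Every treated library was lower than vehicle, with a log2 fold change of -0.40 ± 0.12 at day 6 and -2.15 ± 0.13 at day 12 (edgeR adjusted p 2.24e-09). The day 6 call was lost on the authors' table (limma adjusted p 0.217), with transcript lengths as an offset (edgeR adjusted p 0.222) and without day 6 vehicle replicate 1 or 2 or day 6 inhibitor replicate 2 or 3 (0.0597 to 0.0812). The ratio of EME1 to MUS81 in CPM was 0.542 ± 0.0569 (SD, n = 3) in day 12 vehicle and 0.0880 ± 0.0195 in day 12 inhibitor libraries. It restates their opposite changes, for which the pair was singled out. As a fold, the other pairs computed moved less from day 12 vehicle to day 12 inhibitor. They include FANCB to FANCL, XRCC2 to RAD51C and RAD50 to MRE11, given above, which moved more than those that follow. FANCG to FANCA went from 0.4555 ± 0.02585 to 0.511 ± 0.03615. NBN to MRE11 went from 0.400 ± 0.0431 to 0.5045 ± 0.0232, and EME2 to MUS81 from 2.00 ± 0.292 to 2.59 ± 0.127. EME2, the other partner of MUS81, was chosen after its values were seen. It was at 64.7, 74.5 and 76.1 CPM in day 12 vehicle and 122.7, 137 and 131 CPM in day 12 inhibitor libraries, and rose by 0.86 ± 0.07 on the log2 scale (edgeR adjusted p 7e-08). At day 6 EME2 was at 83.6, 88.7 and 90.7 CPM in vehicle and 81.7, 71.4 and 77.5 CPM with inhibitor, a log2 fold change of -0.19 ± 0.07 that missed the threshold (edgeR adjusted p 0.0557).

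**Figure D3:**
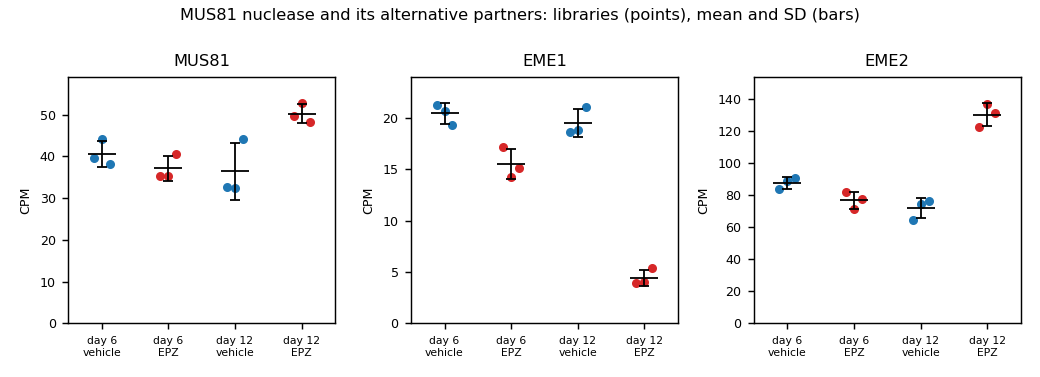
CPM (y axis) of MUS81, EME1 and EME2 in each library by group (x axis), with mean and SD of 3 libraries as bars. In day 12 inhibitor libraries MUS81 averaged 50.3 CPM against 36.4 in vehicle, EME1 4.40 against 19.5 and EME2 130.3 against 71.8.

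Exons of 13 of the 34 members overlap those of another coding gene, on the opposite strand for 10 of them, and the sources used here do not say whether the libraries kept strand. Values of these members are uncertain to the extent that such reads were shared. MUS81 overlaps CFL1, which was at 448.3 CPM in day 12 vehicle and fell by 0.63 on the log2 scale, and EFEMP2, which was at 1.31 CPM and rose by 1.23. EME1 overlaps LRRC59, which was at 469.3 CPM in day 12 vehicle and fell by 1.40. The opposite-strand partners of FANCF (GAS2), FANCL (VRK2) and MRE11 (ANKRD49) also fell at day 12, at -0.91, -0.52 and -0.32. Those of FANCA (ZNF276) and RAD54L (LRRC41) rose, at 0.26 and 0.20, and those of FANCI (POLG) and XRCC3 (KLC1) did not pass, both at 0.07. The part of shared reads in any value was not tested.

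TOPBP1 (chr3:133598175-133662380, minus strand), the scaffold through which the ATR checkpoint kinase is activated, was at 280.4, 255 and 262 CPM in day 6 vehicle and 226, 237 and 244 CPM in day 6 inhibitor, and at 322, 298 and 269.8 CPM in day 12 vehicle and 130.2, 136 and 138 CPM in day 12 inhibitor. The treated libraries lay under vehicle at each day, narrowly at day 6. It fell by 0.17 at day 6 (edgeR adjusted p 0.0344) and by 1.14 at day 12 (edgeR adjusted p 4.67e-10) on the log2 scale. The day 6 call was lost with library totals (edgeR adjusted p 0.0647), with a filter at 5 CPM (0.0810) and without any 1 of the day 6 vehicle libraries, day 6 inhibitor replicate 1 or 2 or day 12 inhibitor replicate 1 or 2 (0.0633 to 0.2035).

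The effect of the inhibitor differed between the days for 32 members, where 47.7% of all genes tested did so. For 30 of them the day 12 effect was lower than the day 6 effect, against 25.1% of all genes, and for FANCE and MUS81 it was higher, against 22.6%. Neither RAD51B nor FANCF passed this test, with differences of -0.95 ± 0.38 and -0.42 ± 0.17. RAD51B passed with DESeq2 (adjusted p 0.04315) and without day 6 inhibitor replicate 2 (edgeR adjusted p 0.00799), and FANCF without a filter (edgeR adjusted p 0.0426) and without day 6 vehicle replicate 2, day 6 inhibitor replicate 1 or day 12 vehicle replicate 3 (0.0274 to 0.0446). The members that did not pass at day 6 but fell at least 2-fold at day 12 were RBBP8, PALB2, RAD51B, RAD54B and UBE2T. The day 6 inhibitor libraries of RBBP8 and UBE2T lay wholly below vehicle, and both passed at day 6 in other settings. With only the libraries of the contrast RBBP8 passed at day 6 (edgeR adjusted p 0.0436) and so did UBE2T (0.00185). RBBP8 also passed without day 12 vehicle replicate 1 (0.0445), and UBE2T without day 12 inhibitor replicate 3 (0.02455) and without a filter (0.04145).

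Between the days in vehicle 6 of the 34 members were called. From day 6 to day 12 in vehicle 5 members rose (RAD50, RBBP8, RAD54B, FANCL and BRIP1) and FANCE fell, where 5.96% of all genes were called higher and 7.15% lower. The changes lay between -0.32 and 0.48 on the log2 scale, with a median of 0.07. These calls depended on single libraries: leaving out 1 library gave 0 to 15 members called, with 15 without day 12 vehicle replicate 3, 1 without replicate 1 and 0 without replicate 2 of that group. None was called without day 6 vehicle replicate 2 or 3, or on the authors' table in limma, which called 0.971% of all genes.

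Levels between genes were compared per length, in TPM, which corrects for transcript length and library size. In day 6 vehicle UBE2T was the highest at 195 ± 8.28 TPM (mean ± SD, n = 3), then FANCI at 184 ± 7.82 TPM, FANCA at 155 ± 7.76 TPM and RAD51C at 143 ± 10.8 TPM. FANCM was the lowest at 7.37 ± 0.451 TPM, below FANCB at 8.97 ± 2.48 TPM, a gap within the spread of FANCB. Over the 33 members other than FANCD2, day 12 vehicle level and day 12 log2 fold change had a Pearson correlation of -0.07 and a Spearman correlation of -0.06. These points are genes that share the same libraries and are not independent.

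Other genes of recombination and of the Fanconi pathway were counted in the same way. Of these 63 genes, 6 had summed transcripts too far from the expected level and were taken from the authors' table and limma, like FANCD2. Of the 63 18 fell and RNF8 rose at day 6 (median -0.17), where 17% of all genes fell and 17.1% rose. At day 12 40 fell and 8 rose (median -0.82), where 33.2% of all genes fell and 33.7% rose. EME2, described above, was among the 8 that rose. The 3 with the smallest p at day 12 were CLSPN, the ATR mediator claspin, at -2.46 ± 0.07, USP1, the enzyme that removes ubiquitin from FANCD2, at -1.70 ± 0.06, and the checkpoint kinase CHEK1 at -2.07 ± 0.07.

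The remaining repair pathways had day 12 medians between -0.53 and -0.14, and their counts stand beside the 33.2% of all genes called lower and 33.7% called higher. From the authors' table and limma come 1 of the 7 mismatch repair genes, 2 of the 20 base excision and 4 of the 18 nucleotide excision genes. Of 17 end joining genes 9 fell and 4 rose at day 12 (median -0.33). The kinase subunit PRKDC (-0.95 ± 0.04), the resection inhibitor RIF1 (-1.28 ± 0.06) and the Ku subunit XRCC6 (-0.79 ± 0.04) fell. The ligase LIG4 (0.65 ± 0.08), the polymerase POLL (0.81 ± 0.12), TP53BP1 (0.40 ± 0.05), which like RIF1 limits resection, and APLF (1.67 ± 0.41) rose.

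Of 7 mismatch repair genes 5 fell and PMS2 (0.24 ± 0.06) rose at day 12 (median -0.53), with the mismatch sensor subunit MSH6 at -1.40 ± 0.05 and PMS1 at -0.53 ± 0.07. Of 20 base excision repair genes 14 fell and 3 rose (median -0.51). PARP1, the sensor of nicks, was at -1.09 ± 0.03, the flap nuclease FEN1 at -1.68 ± 0.06 and the ligase LIG1 at -1.99 ± 0.07, and the glycosylases SMUG1 (0.44 ± 0.12), NEIL1 (1.14 ± 0.10) and NEIL2 (1.33 ± 0.27) rose. Of 18 nucleotide excision repair genes 8 fell and 5 rose (median -0.14), shares not far from those of all genes. DDB2, the UV damage sensor, fell at -1.38 ± 0.08, and XPC (0.20 ± 0.05), CETN2 (1.16 ± 0.10), ERCC2 (0.86 ± 0.10), ERCC6 (0.61 ± 0.05) and UVSSA (0.45 ± 0.05) rose.

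**Figure D4:**
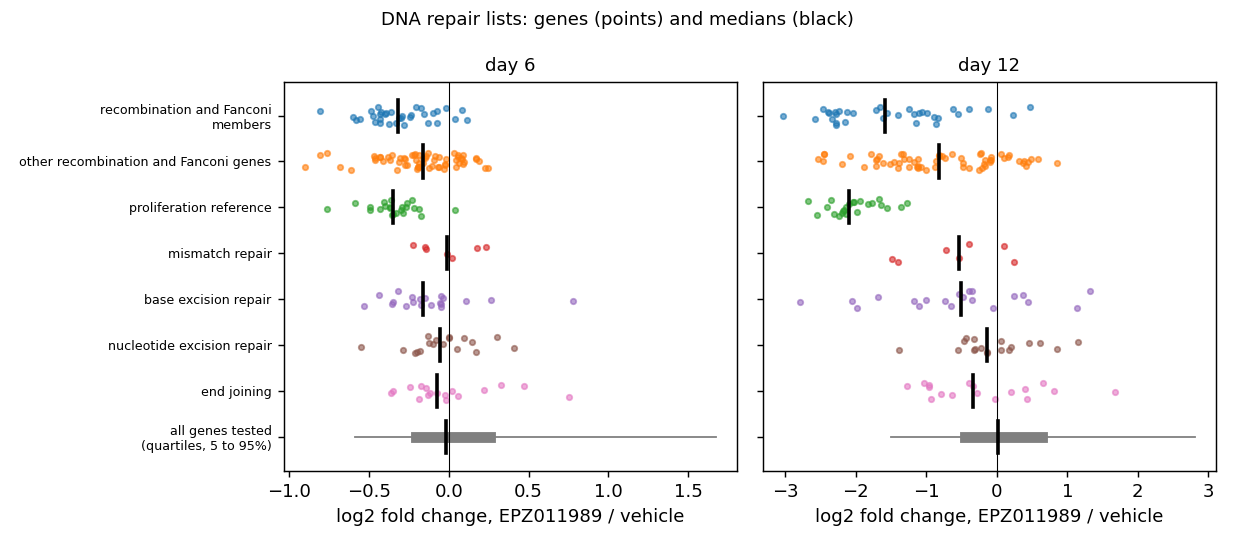
Log2 fold change (x axis) of each gene (points) by repair list, with the list's median in black, at day 6 and day 12. The bottom line gives quartiles and the 5 to 95% range of all genes tested. At day 12 the members' median of -1.58 lies between that of the proliferation reference (-2.09) and that of the other recombination and Fanconi genes (-0.82).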

How the data were processed

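The 34 members and all lists were chosen with earlier results of these data known. The labels give 3 libraries in each of 4 groups. Per the file headers, the deposited tables hold estimated counts per transcript, TPM and an effective length. Per the submitters' processing notes they come from Salmon 1.2.0 with hg38, and the notes also name FastQC and DESeq2. The authors' table of normalized signal per gene has a scaling not given in the sources used here.

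Estimated counts were summed per gene (GENCODE annotation, GRCh38; 93.5% of 179883 transcripts matched, unmatched reads 3.08 to 3.58%), rounded, filtered with filterByExpr, scaled by TMM and tested by two-sided quasi-likelihood in edgeR 4.0.16 under R 4.3.3, with all 12 libraries in 1 fit and Benjamini-Hochberg adjustment over 15024 genes. The 4 contrasts were inhibitor at each day, their difference, and day 12 against day 6 in vehicle. A standard error is the log2 fold change over the square root of F. FANCD2 and the genes of other lists whose summed level lay outside 0.8 to 1.25 times that of the authors' table were tested with limma 3.58.1 on log2(signal + 1) of the authors' table, for genes at 10 or more in at least 3 libraries. That scale understates changes of low genes. CPM uses library sizes after TMM scaling. The tests were tried on simulated data first.

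Values in every library are given, in each role group, for the 2 members with the largest and the 1 with the smallest absolute change at day 12, for members called against the majority, and for BRCA1, BRCA2, FANCD2, FANCI and FANCA. Of each other list up to 3 genes with the smallest p at day 12 are named, with those called in the opposite direction where 5 or fewer, and EZH2 and MKI67 by name. Some genes that this rule takes are not reported here. Alternatives were another scaling, filter, test, threshold, data source or pseudocount, transcript lengths as an offset, the replicate number as a block, only the libraries of a contrast, and each library left out.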

Additional observations from a re-analysis of the deposited data

Results flagged for a closer look

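The inhibitor effect, as a log2 fold change, differed between the days for 32 members in the test of the difference itself (day 12 effect minus day 6 effect, adjusted p under 0.05 in edgeR, or in limma for FANCD2). Among the end resection genes the difference was -1.98 for BLM, -1.94 for EXO1, -1.49 for RBBP8, -0.81 for MRE11, -0.63 for NBN and -0.24 for RAD50. Among the mediators the difference was -1.95 for BRCA2, -1.85 for XRCC2, -1.82 for BARD1, -1.75 for BRCA1, -1.16 for RAD51D, -1.10 for PALB2, -0.82 for RAD51C and -0.61 for XRCC3. Among the strand exchange cofactors the difference was -1.93 for RAD54B, -1.90 for RAD51AP1 and -1.80 for RAD54L. In the Fanconi core and its E2 the difference was -2.59 for FANCB, -1.31 for UBE2T, -1.29 for FANCA, -0.997 for FANCG, -0.98 for FANCL, -0.57 for FANCC, -0.43 for FANCM and 0.43 for FANCE. In the ubiquitinated pair the difference was -1.90 for FANCI and -1.32 for FANCD2. Among the downstream genes the difference was -2.09 for BRIP1, -1.75 for EME1, -0.31 for SLX4 and 0.60 for MUS81. For the checkpoint scaffold the difference was -0.96 for TOPBP1. Each is given as a value with no explanation.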

How the results depend on the processing

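No called change of a member reversed its direction under any alternative run. FANCD2 kept its limma test on the authors' table in the edgeR scaling, filter and transcript-length alternatives and in DESeq2. Its calls were therefore not tried in those settings, though it counts among their members called. The count of members called at day 6, 22 in the report, was 13 in limma on the authors' table (pseudocount 1 or 5), 12 there without a filter on low values, and 13 with transcript lengths as an offset. The count called in vehicle between the days, 6 in the report, was 0 under each of these settings, 0 with only the libraries of the contrast and 0 at an adjusted p under 0.01. Leaving out 1 library gave 17 to 23 members at day 6, 32 to 33 at day 12, 23 to 25 at least 2-fold lower at day 12, 31 to 33 for the difference between days and 0 to 15 for vehicle. At day 6, 11 members lost their call under at least 1 alternative (BRCA1, BRCA2, BRIP1, EME1, EXO1, FANCB, FANCM, RAD51C, RAD51D, RAD54L and TOPBP1) and 3 gained one (RAD50, RBBP8 and UBE2T). For the difference 5 lost it (FANCE, FANCM, NBN, RAD50 and SLX4) and 2 gained it (FANCF and RAD51B). The 4 calls lost at day 12 were those of FANCE, RAD51B, FANCF and NBN, the last only without a filter in limma (adjusted p 0.0537). FANCF was lost at the stricter threshold and without day 12 inhibitor replicate 1 (adjusted p 0.0630). The cause of these changes was not tested. With the replicate number as a block the counts were 22 at day 6, 33 at day 12, 33 for the difference and 5 for vehicle. The block ended the calls of FANCB at day 6 (adjusted p 0.05455) and BRIP1 in vehicle (0.0506) and gave calls for UBE2T at day 6 (0.0422) and for the difference of FANCF (0.0409). Deviations of same-numbered libraries correlated at -0.0723 to 0.155 and those of different numbers at -0.196 to 0.145, so the numbers were not taken as pairs. Depth limits FANCB and RAD51B most, the members with the fewest reads in day 12 inhibitor libraries.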
